A study of Mus musculus with 17 samples.

Results

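The 10 genes described here, Mcm2, Mcm3, Mcm4, Mcm5, Mcm6, Mcm7, Mcm10, Cdc45, Cdc6 and Cdt1, license replication origins and turn licensed origins into active helicases. They were found by symbol among the 54838 genes of the count files. All 10 passed the filter on low counts, which left 24523 genes for testing.

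In G1 the origin recognition complex, Cdc6 and Cdt1 load the ring of Mcm2 to Mcm7 onto DNA as an inactive double hexamer, a step called licensing. When S phase begins, the kinases Cdc7 with Dbf4 and Cdk2 trigger the next step. In it Cdc45 and the GINS complex join the loaded rings to form the CMG helicase, and Mcm10 helps the helicase start. Most adult haematopoietic stem cells (HSCs) rest outside the cycle, where E2F target genes such as these are kept low. Low Mcm levels in old HSCs have been linked to replication stress when such cells are driven to divide.

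The libraries came from HSCs of C57BL/6 Jrj mice, sorted from bone marrow as Lin- Ckit+ Sca1+ CD48- CD150+ cells. The young animals were aged 8 to 12 weeks, the old animals over 18 months. The young control group held 4 libraries and the young CCCP group 5, from mice given 1 intraperitoneal injection of CCCP at 0.3 mg/kg. The old control group held 3 libraries and the old Mito-Q group 5, from mice given Mito-Q at 2 mg/kg on 5 consecutive days. CCCP is a protonophore that collapses the mitochondrial membrane potential, and Mito-Q is a ubiquinone targeted to mitochondria. The labels do not say what the controls received, when cells were taken after the last injection, or whether each library is a separate mouse. A p-value given here then covers only how libraries of a group vary, and part of that may be technical. The study asked how old HSCs differ from young ones and how far both agents move them.

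In the GENCODE annotation of GRCm38, the build of the files, the loading factors are Cdc6 (ENSMUSG00000017499) at chr11:98907801-98923940 and Cdt1 (ENSMUSG00000006585) at chr8:122568015-122573554, both on the plus strand. The hexamer genes are Mcm2 (ENSMUSG00000002870) at chr6:88883474-88898780, Mcm3 (ENSMUSG00000041859) at chr1:20802968-20820312, Mcm4 (ENSMUSG00000022673) at chr16:15623897-15637400, Mcm5 (ENSMUSG00000005410) at chr8:75109569-75128439, Mcm6 (ENSMUSG00000026355) at chr1:128331590-128359664 and Mcm7 (ENSMUSG00000029730) at chr5:138164583-138172422, of which Mcm5 is on the plus strand and the others on the minus strand. The activation factors are Cdc45 (ENSMUSG00000000028) at chr16:18780447-18811987 and Mcm10 (ENSMUSG00000026669) at chr2:4989714-5012791, both on the minus strand. Counts are of reads over each whole gene's exons.

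Reads assigned to genes ranged from 5649611 to 8120443 per library, so that 3 reads of a gene were worth between 0.298 and 0.653 CPM, the read count scaled to library size. The transcripts that define the sort gate, Kit, Ly6a (Sca1) and Slamf1 (CD150), were detected in every group, at levels given with the markers at the end, and Cd48 averaged between 0.238 and 7.47 CPM per group. Some libraries stood apart. The third young CCCP library had 65.5% of its uniquely aligned reads outside annotated exons and the lowest median rank correlation with the others (0.682). The first old control library also had 62.4% of such reads outside exons, and the third young control library had reads on 17067 genes, the fewest of all. The third young control (rank correlation 0.803), the third young CCCP and the first old control (0.799) had the lowest such correlations. Results are given with and without the pair of young libraries, which an earlier reading of these data had set apart, and without all 3. Both young libraries of the pair also had low Mcm values, so leaving them out raises the young Mcm level by construction, and the fits without them are no independent support for an age difference. In bulk RNA, fewer cells of a type and less RNA per cell cannot be told apart.

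Promoters are shown because licensing genes are textbook targets of E2F factors, which act through words close to their start sites. RefSeq windows (GRCm38.p6), from 250 bases before to 50 after the start, were available for 9 of the 10 members. The window of Mcm4 was not used here. At least 1 of the E2F words TTTCCCGC, TTTGGCGC, TTTGCCGC or TTTCGCGC, on either strand, stood in 6 of 9 windows (Mcm3, Mcm5, Mcm6, Mcm7, Cdc6 and Cdt1). The same words stood in 744 of all 32851 RefSeq promoter windows of that length (2.26%). In Mcm5 and Mcm6 a TTTCGCGC and a TTTGGCGC word overlap on opposite strands. The windows of Mcm2, Mcm10 and Cdc45 held none of these letters. Capitals below mark E2F words in 3 members, and the window of Mcm2 is shown as one without them. They lie at chr1:128359706-128359865 (minus strand, Mcm6), chr8:75109309-75109508 (plus, Mcm5), chr11:98907991-98908091 (plus, Cdc6) and chr6:88898781-88898940 (minus, Mcm2). None overlaps an annotated exon. The Cdc6 stretch lies inside the GENCODE gene placed above, because the RefSeq start used here is 350 bases downstream of the GENCODE start. For Mcm7 the RefSeq start is 539 bases downstream.
Mcm6: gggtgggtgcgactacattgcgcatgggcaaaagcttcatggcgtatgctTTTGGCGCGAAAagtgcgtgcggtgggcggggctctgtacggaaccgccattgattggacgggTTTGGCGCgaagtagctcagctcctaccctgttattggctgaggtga
Mcm5: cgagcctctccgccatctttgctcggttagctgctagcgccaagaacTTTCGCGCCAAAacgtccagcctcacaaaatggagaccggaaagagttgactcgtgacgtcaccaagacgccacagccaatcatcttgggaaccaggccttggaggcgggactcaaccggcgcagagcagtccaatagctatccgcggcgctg
Cdc6: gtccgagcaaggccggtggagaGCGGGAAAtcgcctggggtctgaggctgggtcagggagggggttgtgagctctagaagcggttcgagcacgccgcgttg
Mcm2: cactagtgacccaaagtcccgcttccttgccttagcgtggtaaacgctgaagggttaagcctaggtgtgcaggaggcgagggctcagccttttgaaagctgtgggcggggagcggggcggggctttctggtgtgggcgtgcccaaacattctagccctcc

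The NF-Y word CCAAT stood in 7 of 9 member windows, against 37.4% of all windows, and was missing in those of Cdc6 and Cdt1. The cell cycle homology word TTTGAA stood in those of Mcm2 and Cdc45, 2 of 9, against 17.9% of all. A match describes the letters and was not tested as a binding site.

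The hexamer subunits were the most abundant members. Per kilobase of exon, Mcm6 averaged 103 CPM over the 17 libraries, Mcm3 71.5, Mcm4 42.9, Mcm7 41.1, Mcm5 31.4 and Mcm2 26.0. The loading factor Cdt1 averaged 12.9 CPM per kb, Cdc45 10.6, Cdc6 5.76 and Mcm10 2.43. Mcm4 and Mcm7 were close neighbours in that order, with 63.4 ± 24.2 and 49.0 ± 17.9 CPM per kb in young controls (SD, n = 4), and Mcm5 (30.5 ± 13.6) and Mcm2 (29.9 ± 17.5) could not be ordered there either. Within a library, Mcm6 took the largest share of the Mcm2 to Mcm7 sum per kb everywhere but in the second young CCCP library, where Mcm3 had 27.0% and Mcm6 25.0%. Reads on Mcm7 and Cdc45 are less certain, because exons of Mcm7 share 557 bases with Cops6, Mir25, Mir93 and Ap4m1, and those of Cdc45 share 209 bases with Ufd1.

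**Figure D1:**
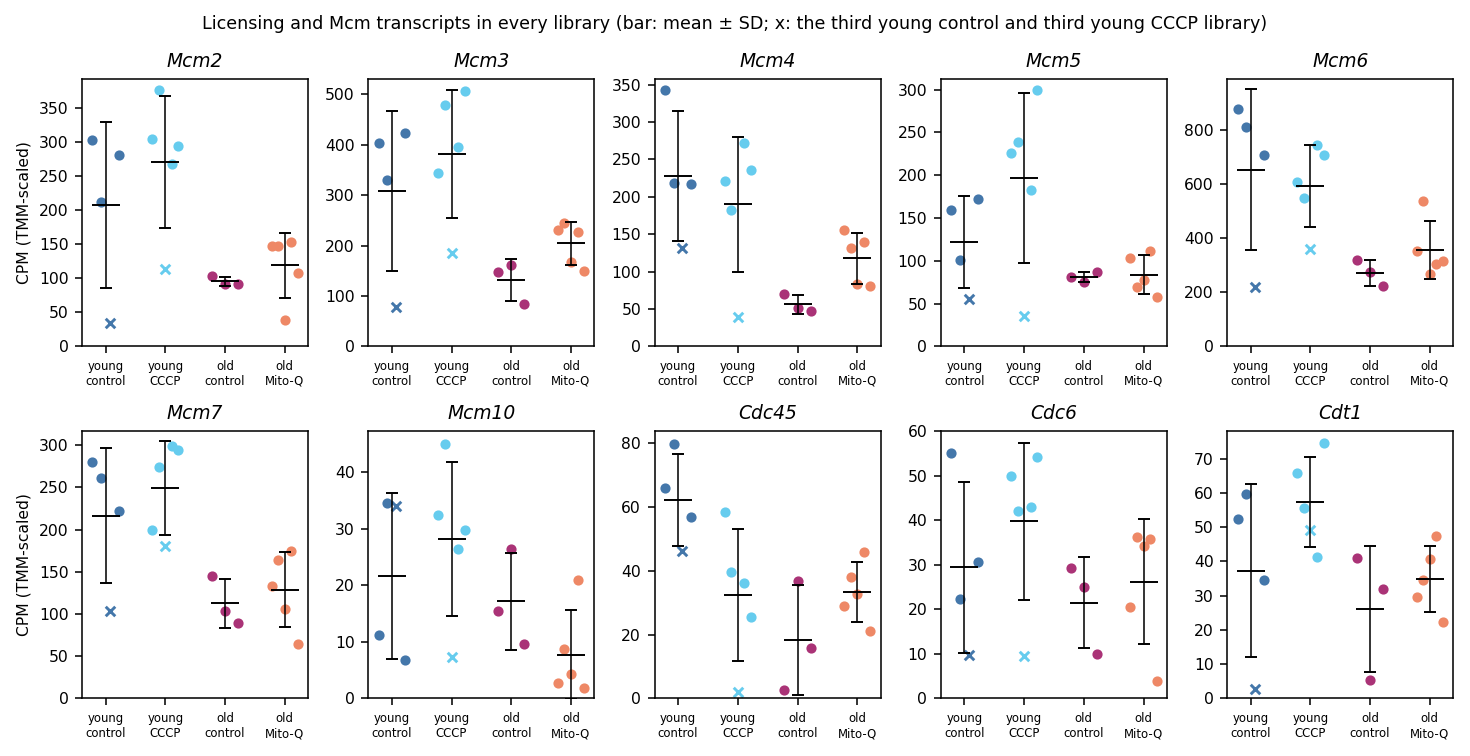
TMM-scaled CPM of the 10 members (vertical axes, linear from 0) in each of 17 libraries by group (horizontal axis), with the mean and SD per group; crosses are the third young control and the third young CCCP libraries. Mcm4 in the 3 old control libraries sits between 47.0 and 70.7 CPM, below all 4 young controls and all 5 old Mito-Q libraries.

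Mcm4 was lower in old control than in young control HSCs, and the other 9 members did not pass the test. The mean of every member was lower in old controls, and 1 of the 10, Mcm4, fell by the test over all genes. In that comparison edgeR called 415 of 24523 genes (1.69%), 287 of them lower (1.17%). At an unadjusted p below 0.05, 6 members were lower, against 7.45% of all genes. All 10 log2 fold changes were below 0, against 44.4% of all genes. Their median was -1.03, and that of all genes tested was 0.16.

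Mcm4, a catalytic subunit of the helicase ring, measured 343, 218, 132 and 218 CPM in the 4 young control libraries. It measured 70.7, 51.2 and 47.0 CPM in the 3 old controls. The groups did not overlap. The difference was -2.01 on the log2 scale (SE 0.47, 95% interval -2.97 to -1.06, adjusted p = 0.0214), from a mean of 228 ± 86.8 (SD, n = 4) to 56.3 ± 12.6 CPM (SD, n = 3). Cdc45 was the other member whose groups stood apart, so 2 of 10 members did, against 6.50% of all genes. The call on Mcm4 was lost without young control 1 (adjusted p = 0.0828), old control 2 (0.145) or old control 3 (0.162), with library totals as scaling (0.0665) and with limma-voom (0.067). Without the third young control and the third young CCCP libraries its log2 fold change was -2.21 (adjusted p = 6.83e-05).

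Mcm6, the most abundant member, measured 881, 812, 219 and 708 CPM in young controls and 320, 275 and 222 CPM in old controls. Mcm3 measured 404, 330, 78.8 and 423 CPM in young controls and 148, 162 and 83.1 CPM in old controls. In both genes the third young control lay below every old control, while the other 3 young controls lay above all of them. Their log2 fold changes were -1.27 (SE 0.38, adjusted p = 0.095) for Mcm6 and -1.24 (SE 0.43, adjusted p = 0.171) for Mcm3, neither past the threshold. Mcm7, another catalytic subunit, measured 280, 261, 103 and 222 CPM against 145, 103 and 89.7 CPM (log2 fold change -0.94, adjusted p = 0.231). Mcm2, which the Cdc7 kinase modifies, measured 304, 212, 35.0 and 281 CPM against 104, 91.2 and 91.8 CPM (-1.12, adjusted p = 0.32). Here too 1 young library, the third, lay below every old control, and the rest above. Mcm5, which pairs with Mcm2 at the gate of the ring, ranged from 55.5 to 172 CPM in young and from 75.0 to 86.5 CPM in old controls (-0.59, adjusted p = 0.641).

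With the third young control and the third young CCCP libraries left out, 5 members were called, all lower. Those libraries had the lowest hexamer sums of the young libraries (623 and 915 CPM). The CCCP library is not in this comparison, only in the same fit. Mcm2 was at -1.48 on the log2 scale (adjusted p = 0.0147), Mcm3 at -1.56 (0.00167), Mcm6 at -1.56 (0.000889) and Mcm7 at -1.19 (0.026), beside Mcm4. With the third young control alone left out, 3 members were called (Mcm3, Mcm4 and Mcm6). The log2 fold changes were then nearly the same, with Mcm2 at -1.49, Mcm3 at -1.57, Mcm6 at -1.57 and Mcm7 at -1.19. The setting without both libraries called 1271 of 23419 genes over all. With the first old control left out as well, the same 5 members were called, Mcm4 at -2.37 (adjusted p = 5.86e-05), with 2520 of 25734 genes over all and a median of all genes of -0.40.

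The loading factors had log2 fold changes nearer to 0, with wide intervals. Cdc6, the ATPase that brings the ring to the origin, measured from 9.79 to 55.2 CPM in young and from 10.1 to 29.4 CPM in old controls, with a log2 fold change of -0.45 and an interval of -1.80 to 0.89. Cdt1, which carries the ring to origins and is destroyed in S phase, measured from 2.83 to 59.6 CPM and from 5.52 to 40.9 CPM (-0.52, interval -1.81 to 0.77). The groups overlapped for both, and the intervals hold differences as large as that of Mcm6.

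Of the activation factors, Cdc45 measured 65.8, 79.9, 46.1 and 57.0 CPM in young controls and 2.62, 36.7 and 15.9 CPM in old controls. Each old library lay below each young one, and the old libraries spread widely among themselves. The log2 fold change was -1.76 (SE 0.72, adjusted p = 0.257). It was -1.86 without the third young control and the third young CCCP libraries (adjusted p = 0.0538). Mcm10 ranged from 6.74 to 34.5 CPM in young and from 9.55 to 26.5 CPM in old controls (-0.33, interval -1.88 to 1.22).

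**Figure D2:**
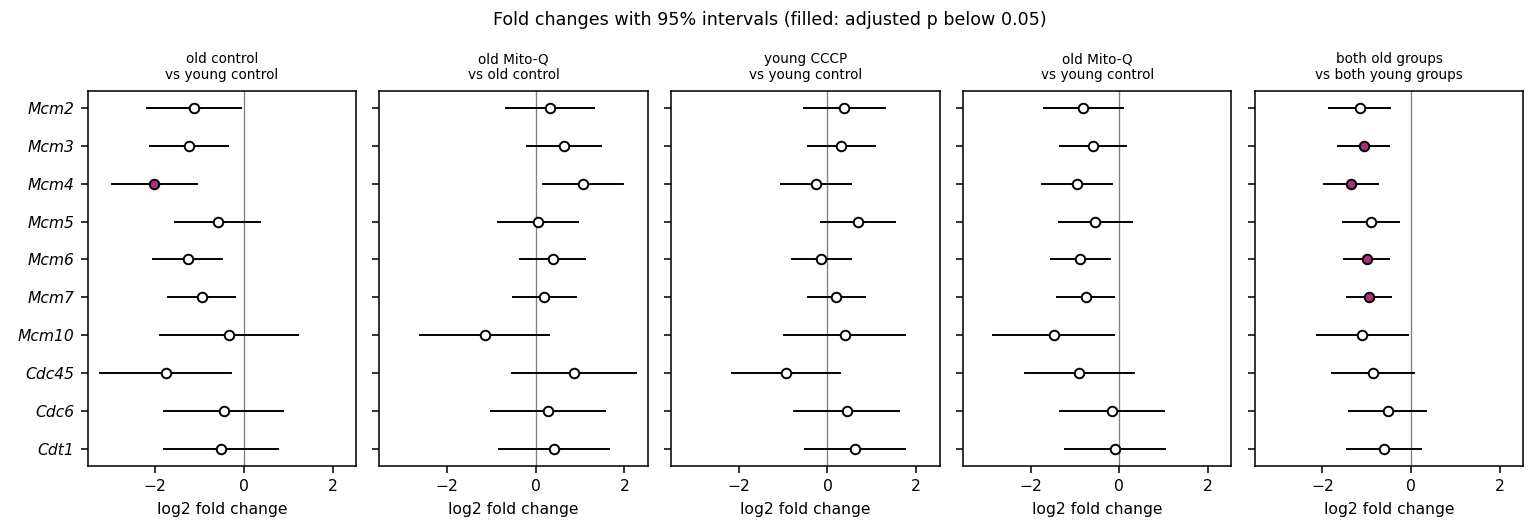
Log2 fold change of each member (horizontal axis; points) with its 95% interval (lines) in 5 comparisons; filled points passed an adjusted p below 0.05. Mcm4 is filled between old and young controls, and Mcm3, Mcm4, Mcm6 and Mcm7 are filled when both old groups are set against both young groups.

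Set over both arms, 8 old libraries against 9 young ones, 4 of 10 members fell, all of them hexamer subunits. This contrast gives each of the 4 groups equal weight and was added after the data were seen. It called 571 genes (2.33%), 235 of them lower (0.958%). The mean of Mcm4 was 94.8 CPM over old and 207 CPM over young libraries, and it was at -1.35 on the log2 scale (SE 0.29, adjusted p = 0.0139), Mcm6 at -1.003 (SE 0.24, 0.0254), Mcm7 at -0.95 (SE 0.24, 0.0294) and Mcm3 at -1.07 (SE 0.28, 0.0362). Mcm2 (-1.16, adjusted p = 0.0625) and Mcm5 (-0.91, 0.111) did not pass the threshold. Cdc45 (-0.86), Cdt1 (-0.62), Cdc6 (-0.53) and Mcm10 (-1.10) had adjusted p-values between 0.261 and 0.577. At an unadjusted p below 0.05, 7 members were lower, against 9.04% of all genes, and all 10 values were below 0, against 53.9%. No member separated all old from all young libraries. The count was 0 without old control 2 or old control 3, 1 without young control 1, 2 or 4, young CCCP 4 or 5 or old Mito-Q 3, 2 without young CCCP 1 or 2, and 6 without the third young control, the third young CCCP or both.

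Old HSCs of Mito-Q treated mice had mean levels of 9 members above those of old controls, but none was called with all libraries. edgeR called 133 genes there (0.542%) and 0 members, and DESeq2 and limma-voom also called 0. At an unadjusted p below 0.05, 1 member was higher, against 5.12% of all genes. Of the 10 log2 fold changes 1 was below 0, against 54.9% of all genes. The member past the unadjusted p was Mcm4, at 155, 131, 83.7, 139 and 80.2 CPM in the 5 Mito-Q libraries, all above the 3 old controls. The log2 fold change was 1.07 (SE 0.43, interval 0.17 to 1.96, adjusted p = 0.392 by edgeR). Mcm4 was the 1 member of 10 whose groups stood apart upward, against 3.87% of all genes. In the fit without the third young control and the third young CCCP libraries, neither of which is in this comparison, Mcm4 was called at nearly the same value (1.08, adjusted p = 0.0453), and also with the first old control left out (1.23, 0.0174). These 3 old controls are also those that gave Mcm4 its age difference, so both differences share them.

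Mcm3 measured 232, 246, 168, 226 and 149 CPM with Mito-Q (0.64 on the log2 scale, interval -0.20 to 1.47). The fifth library lay within the old control range and the others above it. Mcm6 measured 352, 540, 267, 305 and 316 CPM (0.39, interval -0.34 to 1.12), and Mcm7 ranged from 65.1 to 174 CPM (0.19). Mcm2 was at 0.32 and Mcm5 at 0.05, with groups that overlapped. Mcm5 was below 0 with DESeq2 size factors (-0.03), upper-quartile factors (-0.08) or library totals (-0.02), so its direction depended on the scaling; with the replicate number as a block Mcm2 was below 0 as well (-0.17). Cdc45 was higher in mean (33.4 ± 9.36 against 18.4 ± 17.2 CPM, log2 0.86, adjusted p = 0.746). Cdt1 (0.42) and Cdc6 (0.28) overlapped widely between groups. Mcm10 was the 1 member with a lower mean, 7.73 ± 7.87 (n = 5) against 17.2 ± 8.59 CPM (n = 3), at -1.15 (adjusted p = 0.63). The median of the members was 0.35, and that of all genes -0.12.

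Against young controls, the same Mito-Q libraries had lower means of all 10 members. None was called by edgeR, DESeq2 or limma-voom (35 genes called, 0.143%), and 4 were lower at an unadjusted p below 0.05, against 4.09% of all genes. These were Mcm4 (-0.95), Mcm6 (-0.88), Mcm7 (-0.75) and Mcm10 (-1.48), with adjusted p-values between 0.544 and 0.592 by edgeR. All 10 log2 fold changes were below 0, against 49.5% of all genes, with a median of -0.78 and 0.01 over all genes. Cdc45 stood below every young control with Mito-Q, at 28.9, 38.2, 32.7, 45.9 and 21.1 CPM (-0.90, adjusted p = 0.81), the 1 member of 10 with groups apart, against 1.36% of all genes. Without the third young control and the third young CCCP libraries, Mcm6 was called (-1.17, adjusted p = 0.0173 by edgeR), with 68 genes in all. The third young control had the lowest Mcm6 of all libraries. The third young CCCP library is not in this comparison, only in the same fit. Without the third young control alone Mcm6 was also at -1.17. In fits that left out 1 library, its adjusted p was 0.138 or more by edgeR.

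In young HSCs no licensing gene was called after CCCP. edgeR called 176 genes (0.718%) and 0 members, DESeq2 and limma-voom called 0, and no member reached an unadjusted p below 0.05, against 4.80% of all genes lower and 6.35% higher. Mcm4 measured 221, 182, 38.7, 272 and 236 CPM (-0.26, interval -1.04 to 0.52), Mcm6 608, 551, 361, 744 and 710 CPM (-0.14, interval -0.80 to 0.52). All CCCP values of Mcm6 lay inside the range of young controls, as did those of Mcm4 except in the third library, which was low. Mcm5 had the highest positive value among the ring subunits, 226, 239, 35.4, 183 and 299 CPM (0.69, interval -0.15 to 1.53, adjusted p = 0.566). Mcm2 (0.38), Mcm3 (0.31) and Mcm7 (0.20) had intervals that reach below 0. Cdt1 ranged from 41.4 to 74.5 CPM (0.62), Cdc6 from 9.53 to 54.2 (0.43) and Mcm10 from 7.39 to 45.0 (0.39). Cdc45 had the lowest value, 58.6, 39.8, 1.94, 36.2 and 25.6 CPM (-0.94, interval -2.16 to 0.28, adjusted p = 0.599). The intervals of Mcm3 and Mcm7 reached up to 1.06 and 0.85. The median of the members was 0.34 and that of all genes 0.21.

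The sum of Mcm2 to Mcm7 put these values in 1 number per library. It measured 2371, 1933, 623 and 2024 CPM in young controls, 1903, 2101, 915, 2161 and 2339 CPM with CCCP, 869, 758 and 620 CPM in old controls and 1124, 1297, 741, 1110 and 776 CPM with Mito-Q. The third library of each young group lay among the old libraries, and the other young libraries lay above them. The Mito-Q libraries spanned from within the old control range to above it.

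The share of each subunit in the ring transcripts sets the library's overall Mcm level aside. Mcm4 took 17.7, 13.9, 25.0 and 13.2% of the sum per kb in young controls but 10.05, 8.31 and 9.50% in old controls. With Mito-Q it took 16.8, 12.5, 13.4, 15.3 and 12.8%, again above all old controls, and with CCCP 14.3, 10.8, 5.29, 15.4 and 12.2%. The old control libraries thus lay below every young control and every Mito-Q library in that share, and within the CCCP range. Mcm5 took 10.4 to 15.7% in old controls and 5.74 to 9.46% in young controls, groups that did not overlap, the old controls being higher, with 4.35 to 13.98% under CCCP and 5.91 to 11.2% under Mito-Q. Mcm6 had a median share between 30.4 and 34.5% and Mcm2 between 7.53 and 8.25% in the 4 groups. These shares were not tested.

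**Figure D3:**
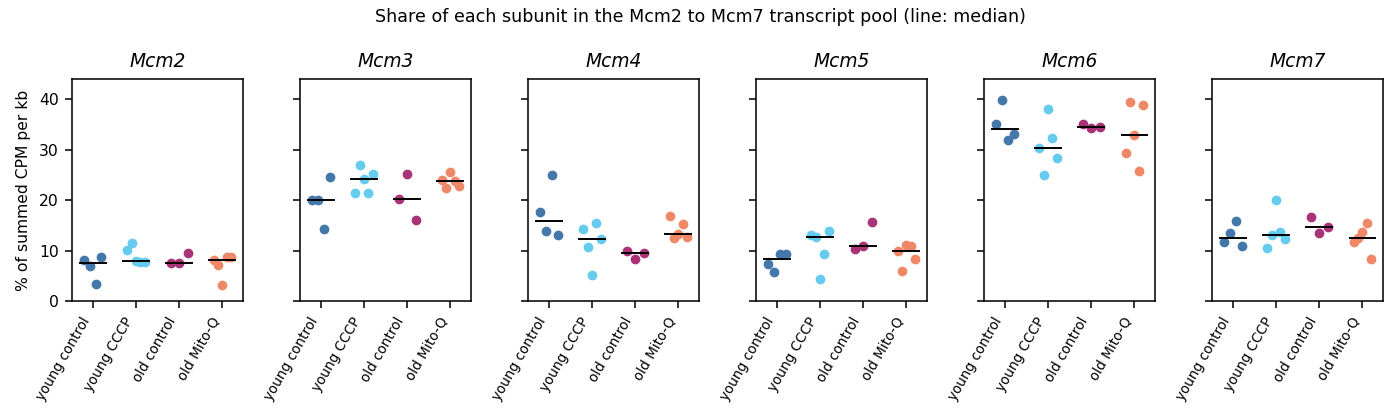
Share of each subunit in the summed CPM per kb of Mcm2 to Mcm7 (vertical axis, %) per library (points) and group (horizontal axis), with group medians as lines. Old control points of Mcm4 lie between 8.31 and 10.05%, under the other old group and the young controls, while Mcm6 has medians from 30.4 to 34.5%.

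The profile of the hexamer over libraries was not closely followed by Cdc6, Cdt1, Mcm10 or Cdc45. The measure was the root mean square (RMS) difference, over 17 libraries, between a gene's centred log2 CPM and the mean centred profile of Mcm2 to Mcm7. Cdc6 was at 0.70, Cdt1 at 0.92, Mcm10 at 1.20 and Cdc45 at 1.23. A gene that did not vary at all would be at 0.73, and the median of 11806 candidate genes was 1.01. Cdc6 was thus little closer to the profile than an unvarying gene, and Cdt1, Mcm10 and Cdc45 were farther from it. Mcm2 to Mcm7 themselves ranged from 0.24 (Mcm3) to 0.46 (Mcm4), which is partly given by their place in the reference.

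The 8 genes outside the members closest to that profile were Rrm1 (0.28), Ssrp1 (0.29), Sf3b3 (0.32), Kit (0.32), the processed pseudogene Gm6768 (0.32), Prkaca (0.32), Pafah2 (0.32) and the processed pseudogene Gm7390 (0.34). Rrm1 is the large subunit of ribonucleotide reductase, which makes deoxynucleotides, and Ssrp1 is a subunit of the FACT histone chaperone. Sf3b3 is a splicing factor, and Kit is the receptor by which the cells were enriched and sorted. The mean of Rrm1 was 263 ± 122 CPM in young controls (SD, n = 4), 91.1 ± 23.8 CPM in old controls (n = 3) and 166 ± 40.7 CPM under Mito-Q (n = 5). Kit averaged 1127 ± 324, 553 ± 99.6 and 784 ± 108 CPM in the same groups. These genes were chosen for their likeness to the hexamer over the same libraries, so their lower level in old HSCs follows from the choice, and their age differences are no independent result.

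**Figure D4:**
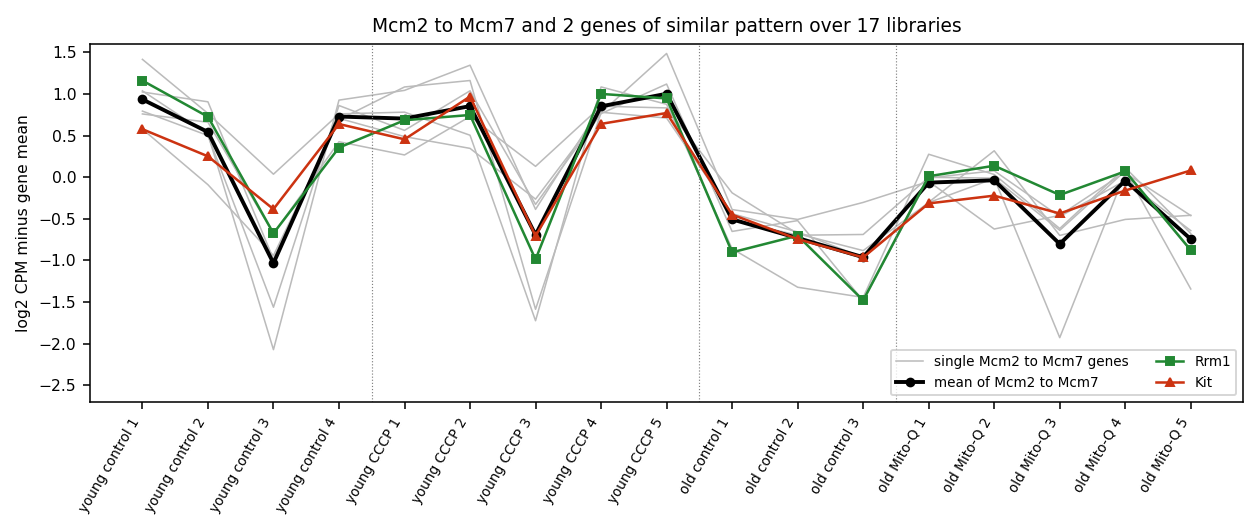
Centred log2 CPM (vertical axis, log scale by construction) over the 17 libraries (horizontal axis) for Mcm2 to Mcm7 singly (grey), their mean (black), Rrm1 (green) and Kit (red). The mean lies near its lowest points in the third young control (-1.03) and the third old control (-0.96) library.

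Mcm4 lies head to head with Prkdc, the catalytic subunit of DNA-dependent protein kinase, with 466 bases between their annotated starts. The mean of Prkdc was 85.6 ± 24.9 CPM in young controls against 41.1 ± 5.10 CPM in old controls (-1.06, adjusted p = 0.167), groups that did not overlap. It averaged 45.8 ± 14.2 CPM with Mito-Q, where Mcm4 averaged 118 CPM. Over both arms Prkdc fell (-1.05, adjusted p = 0.016), with every old library below every young one, as in 0.0856% of all genes; without old control 2 or old control 3 its adjusted p was 0.0863 and 0.0882. Ap4m1, whose start lies inside Mcm7 on the other strand, was at 0.98 between old and young controls (adjusted p = 0.534). Ufd1, which overlaps Cdc45, was at -0.21 (0.851). Prkdc was looked up for its place beside Mcm4, and it is singled out here with its values known.

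Among genes that control licensing, Dtl and Ddb1 fell in old controls. Both belong to the ubiquitin ligase that destroys Cdt1 in S phase, Dtl as the substrate receptor and Ddb1 as the adaptor. Dtl measured 187, 142, 101 and 165 CPM in young controls and 14.2, 21.7 and 44.6 CPM in old controls (-2.47, SE 0.41, adjusted p = 0.00106), groups that did not overlap. Ddb1 measured 430, 370, 142 and 401 CPM against 204, 57.1 and 43.3 CPM (-1.72, SE 0.44, adjusted p = 0.0413). Dtl kept its call without any single library (adjusted p at most 0.028), while Ddb1 lost it without young control 1, 2 or 4 or old control 2 or 3 (0.0898 to 0.299), with DESeq2 size factors (0.066), library totals (0.16) or only the 2 groups fitted (0.211).

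Dtl also rose with Mito-Q, to 96.7, 89.0, 92.2, 68.5 and 150.0 CPM, each above the highest old control (1.89, SE 0.39, adjusted p = 0.0148). It was the 1 pathway gene called there of 112 outside the members, against 0.542% of all genes. The fall of Dtl with age and its rise with Mito-Q share the same 3 old controls. The call with Mito-Q was lost without old control 1 (adjusted p = 0.121), old control 2 (0.255) or Mito-Q 5 (0.0502). Its target Cdt1 was at -0.52 and 0.42 in the same comparisons, neither called.

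Counted by list between old and young controls, licensing control had 2 of 12 genes lower and 0 higher, with a median of -0.73. Over all genes, 1.17% were called lower and 7.45% were lower at an unadjusted p below 0.05. The other replication lists had no call in either direction except mitosis markers. Of those 20 genes, 11 were below 0 and 9 above, with a median of -0.16. At an unadjusted p below 0.05, 3 were lower and 2 higher, and 1 was called, lower. That gene was Mki67, the Ki-67 antigen of cycling cells, at 47.1 ± 11.4 CPM (n = 3) with age against 146 ± 43.8 CPM (n = 4) in young controls (-1.63, adjusted p = 0.00751; 0.135 without old control 2). The origin recognition complex had 0 of 6 called (edgeR; 1 lower at an unadjusted p below 0.05; median -0.48), with Orc3 at -0.92 (adjusted p = 0.127) and Orc1 at -0.82 (0.688). The E2F, Rb and DREAM list had 0 of 18 called (3 lower and 1 higher unadjusted; median -0.62), with E2f7 at -1.69 (0.252) and Rbl1 at -1.65 (0.0847). CMG and origin firing had 0 of 10 called (2 lower and 1 higher unadjusted; median -0.18). Its Recql4 had no read in any old control and was at least 5.58-fold lower there, set against 3 reads per library (adjusted p = 0.138), and Donson was at -1.55 (0.498).

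Fork and polymerase genes, which copy DNA once the helicase runs, had 0 of 28 called (1 higher and 1 lower unadjusted), with a median of 0.10, near that of all genes. The share of all genes lower at an unadjusted p below 0.05 was 7.45%. Pold4 was at 0.92 (adjusted p = 0.283) and Pold3 at -0.85 (0.313). Nucleotide supply had 0 of 8 called (1 lower unadjusted; median 0.20), with Rrm1 at -1.53 (0.0689) and Dctpp1 at 0.88 (0.379). S phase kinases and cyclins had 0 of 10 called (1 higher and 2 lower unadjusted; median -0.06), with Ccnd1 at 1.32 (0.33) and Ccna2 at -1.22 (0.268). The difference between these lists and the members was not tested.

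**Figure D5:**
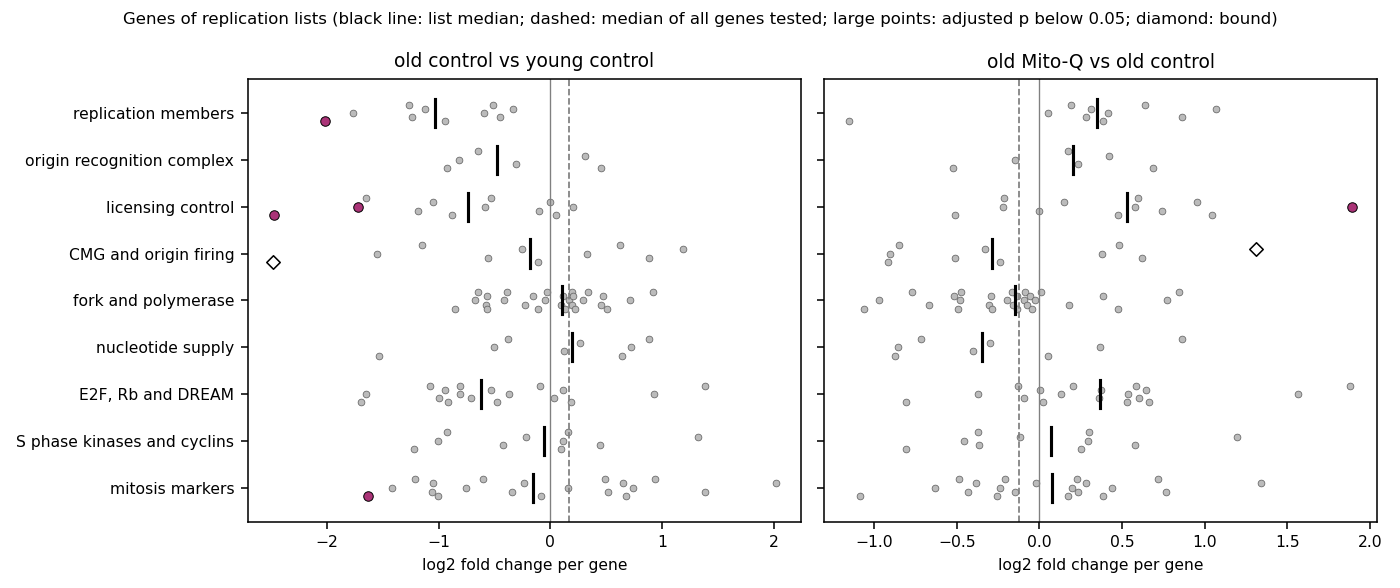
Log2 fold change of each gene (points; horizontal axes) by list (vertical axis) for old control against young control and old Mito-Q against old control, with list medians (black) and the median of all genes (dashed); the diamond is Recql4 at its bound. Members and licensing control have medians of -1.03 and -0.73 with age, and fork and polymerase 0.10.

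With Mito-Q against old controls, the list medians were 0.53 for licensing control, 0.37 for E2F, Rb and DREAM, 0.20 for the origin recognition complex and -0.28 for CMG and origin firing. They were -0.15 for fork and polymerase, -0.35 for nucleotide supply, 0.07 for S phase kinases and 0.08 for mitosis markers. Apart from Dtl no gene was called. The values farthest from 0 in these lists were Dbf4 at 1.05 (adjusted p = 0.437), E2f7 at 1.88 (0.332), Lin54 at 1.56 (0.379), Orc2 at 0.69 (0.561), Orc5 at -0.52 (0.667), Gins2 at -0.91 (0.649), Lig1 at -1.06 (0.3), Rpa3 at -0.97 (0.508), Tk1 at -0.87 (0.454), Rrm1 at 0.86 (0.473), Ccna2 at 1.19 (0.396), Ccnd1 at -0.81 (0.715), Tpx2 at 1.34 (0.372) and Cenpf at -1.08 (0.549). Recql4 had no read in old controls and averaged 1.20 CPM with Mito-Q, where its lowest library was also at 0. Set against 3 reads per old control library, its Mito-Q mean was 2.48-fold higher (adjusted p = 0.348 by edgeR). Against young controls, no gene of these lists was called in Mito-Q libraries. There Ddb1 was at -1.15 (adjusted p = 0.485) and Cul4a at -0.88 (0.614), Orc1 at -0.58 (0.959) and Orc3 at -0.50 (0.654), Recql4 at -1.16 (0.971) and Donson at -1.07 (0.873), and Fen1 at -0.88 (0.983) and Lig1 at -0.73 (0.604). Rrm1 was at -0.67 (0.687), E2f2 at 1.29 (0.926) and Rbl1 at -0.99 (0.556), Ccne2 at -0.71 (0.908) and Cdc25a at -0.59 (0.871), and Ube2c at 1.56 (0.479) and Nusap1 at -1.15 (0.578).

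With CCCP against young controls, no pathway gene was called. The values farthest from 0 were Orc3 at -0.54 (adjusted p = 0.433) and Orc6 at -0.50 (0.61), Fbxo5 at 1.26 (0.363) and Lrwd1 at 0.49 (0.696), Recql4 at 1.70 (0.723) and Ticrr at 1.44 (0.395). For fork and polymerase and nucleotide supply they were Timeless at 1.59 (0.377) and Chaf1a at 1.48 (0.329), Rrm2 at 1.16 (0.368) and Tk1 at 0.98 (0.345). For the E2F list and the S phase kinases and cyclins they were E2f2 at 2.98 (0.371) and Mybl2 at 1.40 (0.565), Ccnd1 at -1.24 (0.405) and Ccne1 at 1.18 (0.711). All 20 mitosis markers had log2 fold changes above 0, with a median of 0.71, 5 of them at an unadjusted p below 0.05, where 41.3% of all genes were below 0, 6.35% were higher at that p and the median was 0.21. In the same libraries all 12 neutrophil and granule genes were above 0, 11 of them at an unadjusted p below 0.05, and their part in the mitosis values was not tested. Aurka was at 2.17 (adjusted p = 0.216) and Cenpf at 2.06 (0.136). Of the members, 3 of 10 were below 0, against the same 41.3% of all genes. Over both arms, Topbp1, which loads Cdc45 (-1.08, adjusted p = 0.0106), Mcmbp, which binds the Mcm ring (-0.79, 0.0386), Dtl (-1.37, 0.00425) and Ddb1 (-1.55, 0.0038) fell in old HSCs, as did Ccna2 (-1.21, 0.0469), Mki67 (-1.47, 0.000258), Bub1b (-1.53, 0.0255) and Kif11 (-1.47, 0.0168), while Ccnd1 rose (1.54, 0.0415). Rrm1 was also called lower (-1.14, 0.023), and it was picked above for its likeness to the hexamer. Of the 20 mitosis markers over both arms, 15 were below 0 and 5 above, with a median of -0.55. At an unadjusted p below 0.05, 5 of them were lower, against 9.04% of all genes. Lists with no call there had Orc1 at -0.72 (adjusted p = 0.446) and Orc6 at 0.63 (0.159), Chaf1a at -0.96 (0.222) and Rpa1 at -0.82 (0.127), and Mybl2 at -1.43 (0.234) and Rbl1 at -1.11 (0.0514). Dtl, Ddb1 and Mki67 kept these calls without any single library, Topbp1 lost its call without old control 2 (0.0752), Kif11 without old control 2 (0.0687) or 3 (0.0837), and Bub1b without young control 4 (0.0591), young CCCP 5 (0.0543) or old control 2 (0.101) or 3 (0.119). Mcmbp, Ccna2 and Ccnd1 lost theirs in most fits that left out 1 library. Rrm1 lost its call without young control 1 (adjusted p = 0.0673 by edgeR), old control 2 (0.0616) or old control 3 (0.139).

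Markers of the gate and of other cells also differed between these groups. Slamf1 averaged 51.9 CPM in young controls, 69.4 with CCCP, 96.7 in old controls and 161 with Mito-Q. Ly6a averaged 250.4, 176, 596 and 397 CPM in that order, and Procr, another HSC surface marker, 102, 107, 274 and 203 CPM. Over both arms Ly6a (1.21, adjusted p = 0.0038), Slamf1 (1.06, 0.00629) and Procr (1.17, 0.0154) rose in old HSCs and Kit was called lower (-0.88, 0.0265). These were 4 of 9 gate genes, against 2.33% of all genes called. Of the 9, 6 were below 0 and 3 above, with a median of -0.19. Kit is also among the genes closest to the hexamer profile above. Its call was lost in most fits that left out 1 library, with an adjusted p of up to 0.155 by edgeR. Between old and young controls 3 of the 9 were higher and 3 lower at an unadjusted p below 0.05, with adjusted p of 0.0605 or more by edgeR. Of all genes, 7.45% were lower there at that unadjusted p, and the share that was higher is not given here.

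Flt3 and Cd34, of multipotent progenitors, were called lower in old controls, 10.4 ± 12.0 against 102 ± 28.1 CPM (-3.27, adjusted p = 0.00372) and 132 ± 22.8 against 382 ± 69.4 CPM (-1.54, 0.00307). The 8 progenitor markers as a list were split in that comparison, 4 below 0 and 4 above, with a median of 0.15. Prtn3, the granule protease proteinase 3, was called higher in old controls, 1015 against 216 CPM (2.23, adjusted p = 0.00017), as was Klrb1c, the NK cell receptor NK1.1, 48.0 against 5.87 CPM (3.03, 0.0155). Prtn3 was the 1 gene called of the 12 neutrophil and granule genes. Of these, 7 were below 0 and 5 above in that comparison, with a median of -0.02. Elane (81.7 against 2.35 CPM, adjusted p = 0.0848) and Ms4a3 (20.3 against 1.37 CPM, 0.0854) did not overlap between these groups, both higher in old controls. The share of all genes that stood apart upward there is not given here. The summed level of the 8 progenitor markers ranged from 132 to 380 CPM in old controls, from 402 to 604 in young controls, from 465 to 1641 with CCCP and from 202 to 873 with Mito-Q. Cd34, with means of 382 CPM in young and 132 CPM in old controls, weighs heavily in the sums of both control groups. The 12 neutrophil and granule genes summed to between 716 and 15410 CPM with CCCP and between 982 and 13740 with Mito-Q, against 430 to 2204 in young and 1093 to 2329 in old controls. Elane, neutrophil elastase, rose with CCCP (7.50 on the log2 scale, adjusted p = 0.0235), from 2.35 to 432 CPM, and Ms4a3, a gene of granulocyte progenitors, with it (5.25, 0.0213). None of their defining genes (Elane, Camp, Ltf) was at 0 throughout a group. The 20 mitosis markers summed to between 762 and 956 CPM in young and between 537 and 917 CPM in old controls, between 1123 and 1898 CPM with CCCP, every library above every young control, and between 443 and 1237 CPM with Mito-Q. The part of these levels in the Mcm values was not tested.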

How the data were processed

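RNA of sorted HSCs was measured in 17 libraries made with the Nextera XT kit, per the labels' protocols. The authors trimmed reads with Trim Galore and aligned them with STAR 2.7 to GRCm38, per the submitters' processing notes; the counting program and its strand setting are not given in the sources used here. The deposited values are raw read counts per gene, 1 column per library. Of 54838 gene identifiers, 54809 were named from GENCODE; the 5 summary entries (37.7 to 76.2% of reads) were left out of library sizes.

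Counts were fitted over all 17 libraries with edgeR 4.0.16 in R 4.3.3 (TMM scaling, filterByExpr with a minimum count of 10, robust quasi-likelihood F-test, Benjamini-Hochberg adjustment over 24523 genes, calls at an adjusted p below 0.05). CPM are TMM-scaled; likeness used log2 CPM with a prior count of 2 and genes with an average log2 CPM above 2. Alternatives were other scalings, filters, DESeq2 1.42.0, limma 3.58.1 voom, a replicate block, the 2 groups alone and libraries left out. All members were named in each comparison; of each replication list, called genes or else the 2 with the largest fold changes were named, except 1 that is not reported here; other genes were named after their values were seen. The members and lists were chosen with earlier results of these data known.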

Additional observations from a re-analysis of the deposited data

Results flagged for a closer look

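Cdc6 measured 9.53 CPM in the third young CCCP library, far from the other 4 of its group, of which the nearest had 42.2 CPM. The gap was 0.731 of the group's range, above Dixon's critical value of 0.71. Of 30 sets of members and groups with 4 or 5 libraries, this was the 1 that stood out, and chance flags about 1 in 20. The same library had the lowest rank correlation with the others (0.682) and 13330 CPM of neutrophil and granule genes; the part of either in the Cdc6 value was not tested.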

How the results depend on the processing

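The number of members called lower in old against young controls was 1, and became 0 with library totals or limma-voom, 2 with no low-count filter or DESeq2, and 5 without the third young control and the third young CCCP libraries; leaving out 1 library gave 0 to 3. Over both arms it was 4, and became 2 with library totals and 0 to 6 with 1 library left out. Without the same pair of young libraries 1 member was called between Mito-Q and young controls and 1 between Mito-Q and old controls. Without the 3 libraries of lowest rank correlation, a setting chosen after seeing the data, the members called were 5 (old against young controls), 1 (Mito-Q against old), 2 (Mito-Q against young) and 7 (both arms), and all genes called 2520, 1135, 118 and 3224; Mcm10 with age was then at 0.0672. Leaving out 1 library gave no called member in the other comparisons.

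Genes called in all moved more. DESeq2 called 1422 (old against young controls), 556 (Mito-Q against old), 667 (CCCP), 228 (Mito-Q against young) and 1806 (both arms). With no filter the last 3 were 324, 90 and 874, and limma-voom called 57 between Mito-Q and young controls. Fitting the 2 groups alone gave 186 (old against young) and 111 (CCCP). Without the third young control and the third young CCCP libraries the counts were 1271 (old against young), 341 (Mito-Q against old), 68 (Mito-Q against young) and 2114 (both arms). With 1 library left out they ran from 125 (without old control 2) to 684 (without old control 1), 79 to 142, 129 to 185, 14 to 34 and, over both arms, 132 to 1244.

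The median of all genes moved from 0.16 to 0.28 with upper-quartile factors to -0.35 without old control 1 and to -0.40 without the 3 libraries of lowest rank correlation (old against young), from -0.12 to 0.33 without those 3 (Mito-Q against old), and from 0.21 to 0.33 with library totals (CCCP). No called member changed direction. Mito-Q against old gave Mcm5 -0.0289 (DESeq2 size factors), -0.0818 (upper quartile), -0.0166 (library totals) and -0.0284 (DESeq2). Mito-Q against young gave Cdt1 0.2574 with limma-voom. Replicate numbers did not pair the libraries (correlations of same-numbered deviations from -0.11 to 0.123). The replicate block gave 1 and 4 called members, as without it, and turned Mcm5 (-0.1804) and Mcm2 (-0.1696) in Mito-Q against old, and Cdc6 (0.1397) and Cdt1 (0.012) in Mito-Q against young.

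With 1 library left out, 10 uncalled values turned direction within these ranges: Cdc6 with age -0.7572 to 0.0447; with CCCP Mcm3 -0.0165 to 0.4957, Mcm4 -0.4464 to 0.0049, Mcm6 -0.4362 to 0.0366 and Mcm7 -0.0383 to 0.3503; in Mito-Q against young Cdc6 -0.4619 to 0.3241 and Cdt1 -0.4874 to 0.2166; in Mito-Q against old Mcm5 -0.0751 to 0.1573, Cdc6 -0.0222 to 0.5577 and Cdt1 -0.0176 to 0.8302. The causes were not tested. At this depth Mcm10, Cdc45, Cdc6 and Cdt1 rest on few reads in some libraries, and 3 to 5 libraries a group limit what could be called.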
